A study of Rattus norvegicus with 13 samples.

Results

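The genes described here carry the cyclic AMP (cAMP) signal of the heart. They are the β1-adrenergic receptor gene Adrb1, the adenylyl cyclases Adcy5 and Adcy6, the phosphodiesterases Pde4b and Pde4d, the protein kinase A (PKA) subunits Prkaca and Prkar1a, and the transcription factors Creb1 and Crem. They were chosen by name. Every probe set annotated to exactly 1 of these symbols was taken, which gave 24 of 31042 probe sets and 9 of 14217 genes. Left ventricle of pregnant Sprague Dawley rats was profiled on 13 Affymetrix whole-genome rat arrays, on which a probe set is a group of short probes that reads the transcripts it matches. There were 4 Met-fed rats, whose drinking water held L-methionine at 9 g/L to model hyperhomocysteinemia (an excess of homocysteine in plasma), 4 L-NAME rats, given the inhibitor of nitric oxide (NO) synthesis L-NAME at 1 g/L to restrict NO, and 5 control rats on plain drinking water. By the sample labels all were females on standard chow, supplementation covered days 1 to 20 of pregnancy and the hearts were taken on day 20 or 21. The labels do not mention parity, whereas the study describes multiparous rats mated several times, with fewer controls than the 5 arrays used here and no L-NAME arrays. The labels do not say in so many words that each array is a separate rat, so p-values measure the spread between these arrays.

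In the cardiomyocyte, noradrenaline bound to the β1-adrenergic receptor activates adenylyl cyclase through the stimulatory G protein, and the cAMP formed releases the catalytic subunits of PKA from their regulatory subunits. PKA phosphorylates phospholamban, the ryanodine receptor and myofilament proteins, which raises the force and speed of the beat, while phosphodiesterases of the PDE4 family degrade cAMP locally. In the nucleus, PKA activates CREB at the cAMP response element (CRE), and an internal promoter of the Crem gene yields short repressors known as inducible cAMP early repressors (ICER).

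Because Crem is itself a classical CREB target, its start-site sequences are shown. RefSeq (build GRCr8) gave windows of 300 bases, running from 250 bases before to 50 bases after a transcription start, for 8 of the 9 genes and 16 windows in all. Adcy6 had no entry. The 3 Crem windows lie on the plus strand of chromosome 17, at chr17:58933816-58934115, chr17:58984547-58984846 and chr17:58985240-58985539. They are printed 5′ to 3′ in that order, in lower case, with every match to the CRE half-site TGACG, or to CGTCA, its form on the opposite strand, in capitals. A full CRE, TGACGTCA, therefore shows as 8 capitals in a row.
Crem window 1: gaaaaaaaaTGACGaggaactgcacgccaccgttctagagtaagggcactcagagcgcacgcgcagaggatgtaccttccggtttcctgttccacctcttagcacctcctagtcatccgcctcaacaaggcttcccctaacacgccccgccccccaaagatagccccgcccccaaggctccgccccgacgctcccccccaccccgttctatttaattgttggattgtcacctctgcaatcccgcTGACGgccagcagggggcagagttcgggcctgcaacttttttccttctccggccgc
Crem window 2: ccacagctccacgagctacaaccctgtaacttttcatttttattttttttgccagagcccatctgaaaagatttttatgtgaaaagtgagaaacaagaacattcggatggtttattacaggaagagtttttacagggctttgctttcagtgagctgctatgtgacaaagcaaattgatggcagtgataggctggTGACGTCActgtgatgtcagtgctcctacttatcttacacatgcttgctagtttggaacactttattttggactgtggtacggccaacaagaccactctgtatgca
Crem window 3: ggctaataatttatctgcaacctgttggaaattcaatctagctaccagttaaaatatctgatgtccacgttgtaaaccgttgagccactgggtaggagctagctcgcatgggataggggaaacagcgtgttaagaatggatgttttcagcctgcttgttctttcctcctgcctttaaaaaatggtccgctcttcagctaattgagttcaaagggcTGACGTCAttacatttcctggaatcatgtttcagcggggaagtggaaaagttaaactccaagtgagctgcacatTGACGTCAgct
The first window held no full CRE, the second held 1 and the third held 2. A full CRE, which overlaps 1 half-site match on each strand, was found in 1.83% of all 33469 windows of this length in the table, and in these 2 of the 16 windows of the 9 genes. A half-site on either strand was found in 8 of the 16 windows and in 21.2% of all windows. Creb1, Adrb1, Pde4d and Prkaca each had at least 1 half-site window, and Adcy5, Pde4b and Prkar1a had none. These matches describe the letters in the windows, and the table does not say which transcript each window starts or which window a probe set reads.

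The L-NAME arrays stood apart from the other arrays. The log2 ratio of 3′ to 5′ signal of beta-actin, a ratio that varies with RNA integrity and labelling, was 2.48 ± 0.16 (SD, n = 4) on L-NAME arrays, 3.53 ± 0.17 (SD, n = 4) on Met-fed arrays and 3.47 ± 0.14 (SD, n = 5) on control arrays. L-NAME differed from control (exact permutation test, 2-sided, p = 0.00794) and from Met-fed (exact p = 0.0286) at the smallest p these group sizes allow, and Met-fed arrays did not differ detectably from control arrays (exact p = 0.611). The median signal was 34.2 to 36.9 on L-NAME arrays, against 25.8 to 29.2 on Met-fed and 25.7 to 27.2 on control arrays. L-NAME changes also followed signal: over 4 equal classes of mean log2 signal, dimmest to brightest, their median over all probe sets against control was 0.30, 0.54, 0.28 and -0.087. The part of these differences between arrays in any L-NAME result below was not tested, and array handling and L-NAME cannot be told apart. Cardiac muscle markers were measured for 7 of 8 listed genes, and all 7 were above the bacterial control probe sets, which have no target in rat RNA. Their summed signal was 16380 to 19130 on L-NAME arrays, against 21500 to 28590 on Met-fed and 24980 to 27080 on control arrays. Markers of several other cell types moved with L-NAME as well, by the deposited values. Against control, 4 of 5 endothelial markers were lower, with a summed signal of 3756 to 4259 on L-NAME, 4641 to 5447 on Met-fed and 5188 to 6025 on control arrays. Of 6 leukocyte markers 4 were lower and 1 was higher, with sums of 2302 to 3034 on L-NAME, 3102 to 3683 on Met-fed and 3155 to 3569 on control arrays. Of 4 smooth muscle markers, Acta2 (1.82 ± 0.33) and Tagln (1.45 ± 0.31) were higher and 1 was lower, with sums of 359.4 to 1067 on L-NAME, 297.3 to 515.7 on Met-fed and 248.7 to 561.5 on control arrays. Of 5 fibroblast markers 2 were lower, as were 1 of 3 blood and 1 of 5 adipocyte markers. Of 4 atrial and 5 sympathetic nerve markers 0 were called. Of all genes 24.2% were called higher and 25.2% lower. The measured cardiac muscle and endothelial markers all lay in the brightest signal class, where 38.8% of all probe sets were called lower. The part of cell make-up in the L-NAME results was not tested. Fewer cells of a type and less RNA per cell cannot be told apart in whole tissue.

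The first comparison asked whether methionine feeding changed these genes. It left no detectable change in the cAMP signaling genes. Of the 24 probe sets, 0 passed an adjusted p of 0.05 for Met-fed against control hearts in limma, and adjusted p ranged between 0.503 and 0.995. None passed an unadjusted p of 0.05 either, although 10.7% of all probe sets did, and the count over all probe sets at adjusted p was 0% as well. The methods' t-test likewise gave 0 of 24 at the unadjusted threshold of the study, and 0 after Benjamini-Hochberg adjustment. At the unadjusted threshold it called 7.98% of all probe sets. It was run here on 5 control arrays, more than the study states, and without the study's variance stabilization. The study itself lists Crem 1378925_at among its significantly changed genes, as raised in its table and as downregulated in its text. No probe set had groups without overlap, against 2.89% of all. The log2 change was positive for 15 probe sets and negative for 9, with a median of 0.094, against 0.00392 over all 31042.

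The second comparison asked what restriction of NO synthesis changed. In L-NAME hearts 12 of 24 probe sets passed the test against control, 9 higher and 3 lower, and they came from 7 of the 9 genes. Probe sets of Crem, Creb1, Adcy5, Adcy6, Pde4d and Pde4b were higher, and probe sets of Pde4b and Prkar1a were lower. Over all probe sets 45.7% passed, 28.7% higher and 17% lower, so the share among the cAMP genes was close to the share on the whole array. The groups did not overlap for 12 of 24 probe sets, against 40.3% of all. The median log2 change was 0.35 for these genes and 0.22 for all probe sets. Under quantile normalization, which gives every array the same distribution of signal, 6 of 24 passed, all higher, where 43.9% of all probe sets passed, 22% higher and 21.9% lower. Under centring of each array on its median, 10 passed, 5 higher and 5 lower, where 45.7% of all passed, 16% higher and 29.7% lower. The 5 probe sets that passed in the same direction under all 3 scalings were 1 of Crem, 2 of Creb1, 1 of Pde4b and 1 of Pde4d, all higher. Of all probe sets 31% passed in the same direction under all 3 scalings, 15.6% higher and 15.4% lower. The total of 5 of 24 was thus not above that of the array. All 5 were higher, unlike the even split of all probe sets, and this difference in direction was not tested.

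**Figure D1:**
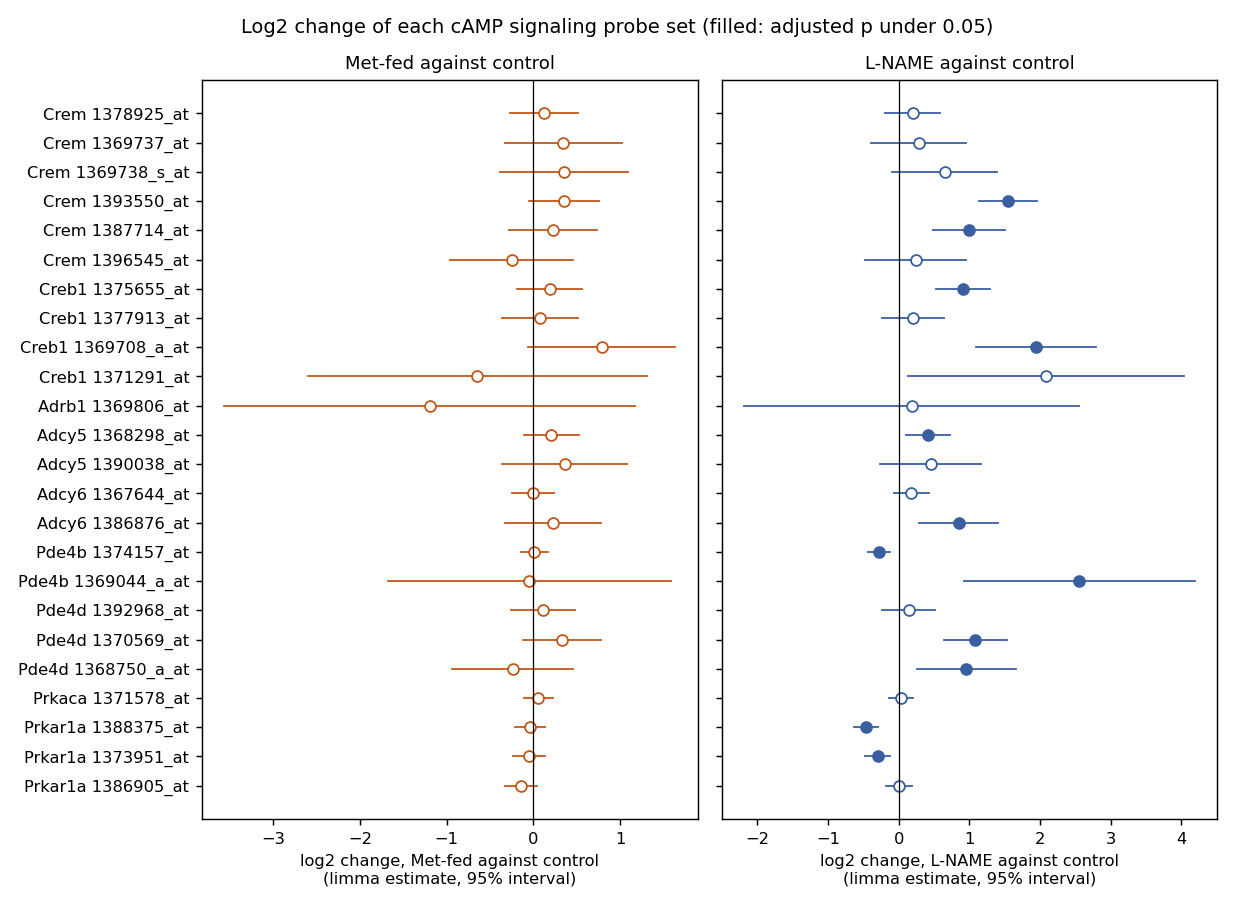
Log2 change with its 95% interval (limma) for each of the 24 probe sets, Met-fed against control on the left and L-NAME against control on the right, with filled points for an adjusted p under 0.05. No Met-fed point is filled, and 12 L-NAME points are, 9 to the right of 0 and 3 to the left.

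Beginning at the cell surface, the receptor gene Adrb1 was at the limit of measurement. Its probe set 1369806_at had log2 signals of -3.02, -1.37, 1.41 and 2.38 in Met-fed hearts, 2.84, -1.55, 2.59 and 1.04 in L-NAME hearts, and 0.79, 1.17, 2.16, 2.25 and -1.14 in control hearts. The 3 groups overlapped over their whole range, and only 1 of 4 Met-fed, 2 of 4 L-NAME and 1 of 5 control arrays exceeded the highest of 27 bacterial control probe sets on the same array. The log2 change was -1.20 ± 1.12 (SE) in Met-fed hearts, with adjusted p = 0.741 in limma, and 0.18 ± 1.12 in L-NAME hearts, with adjusted p = 0.911. The corresponding folds had 95% intervals of 0.0845 to 2.25 and 0.22 to 5.86, so the data set no direction for Adrb1.

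Adcy5 and Adcy6 encode the main adenylyl cyclases of the cardiomyocyte. Adcy5 1368298_at had log2 signals of 6.89, 7.30, 6.80 and 6.66 in Met-fed hearts, 6.997, 7.18, 7.26 and 7.03 in L-NAME hearts, and 6.96, 6.79, 6.38, 6.86 and 6.53 in control hearts. All 4 L-NAME hearts were above all 5 control hearts, while Met-fed hearts spanned both ranges. The L-NAME rise was 0.41 ± 0.15 on the log2 scale, a fold of 1.33 with a 95% interval of 1.07 to 1.66 and limma adjusted p = 0.0314. This call was lost with quantile normalization (0.20) and with array median centring (-0.012). The other Adcy5 probe set, 1390038_at, changed by 0.45 ± 0.34 in L-NAME hearts and by 0.36 ± 0.34 in Met-fed hearts, and neither passed.

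Adcy6 1386876_at had log2 signals of 5.07, 4.89, 4.95 and 4.86 in Met-fed hearts, 5.12, 5.64, 5.88 and 5.63 in L-NAME hearts, and 4.45, 5.11, 3.87, 5.38 and 4.76 in control hearts. L-NAME and control hearts overlapped, with controls 2 and 4 inside or next to the L-NAME range. The log2 rise was 0.85 ± 0.26 in L-NAME hearts (limma adjusted p = 0.014), and the call was lost with quantile normalization (0.47) and with centring (0.42). The other probe set of the gene, 1367644_at, was at 7.64 to 8.05 in L-NAME hearts, 7.55 to 7.82 in Met-fed hearts and 7.38 to 7.86 in control hearts, and its L-NAME change of 0.18 ± 0.12 did not pass (adjusted p = 0.236). In Met-fed hearts that probe set differed from control by -0.00417 ± 0.12, with a 95% interval of the fold of 0.84 to 1.18.

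Among the phosphodiesterases, the probe sets of Pde4b moved in opposite directions in L-NAME hearts. Pde4b 1374157_at had log2 signals of 9.97, 10.19, 10.004 and 9.99 in Met-fed hearts, 9.71, 9.76, 9.89 and 9.65 in L-NAME hearts, and 9.995, 10.12, 10.12, 9.97 and 9.92 in control hearts. Every L-NAME heart lay below every control and every Met-fed heart. The log2 change was -0.27 ± 0.075 against control, a fold of 0.826 with a 95% interval of 0.74 to 0.923 and limma adjusted p = 0.00636. This probe set lay in the brightest of the 4 signal classes, where 38.8% of all probe sets were called lower in L-NAME hearts, and with quantile normalization its change was -0.13 and did not pass. With centring it passed at -0.70 (limma adjusted p = 1.03e-05).

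The dim Pde4b probe set 1369044_a_at had log2 signals of 1.42, 2.21, -1.82 and 1.997 in Met-fed hearts, 3.44, 3.80, 3.83 and 3.16 in L-NAME hearts, and 1.43, 2.60, -0.59, 1.41 and 0.14 in control hearts. All 4 L-NAME hearts were above all other hearts and above their bacterial controls, which held for 3 of 4 Met-fed and 1 of 5 control hearts. The log2 change of 2.56 ± 0.77 (limma adjusted p = 0.012) therefore rests on control values mostly at background, and the interval of the fold ran over 1.9 to 18.3. It passed under all 3 scalings, at 2.11 with quantile normalization and 2.13 with centring. In Met-fed hearts the changes of the Pde4b probe sets were 0.012 ± 0.075 and -0.050 ± 0.77. The fold of 1374157_at had an interval of 0.903 to 1.13.

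For Pde4d, 2 of 3 probe sets rose in L-NAME hearts. Pde4d 1370569_at had log2 signals of 6.67, 5.80, 6.43 and 6.61 in Met-fed hearts, 7.02, 7.31, 7.38 and 6.84 in L-NAME hearts, and 5.63, 6.61, 6.18, 6.09 and 5.74 in control hearts. The L-NAME hearts were all above the others, and Met-fed heart 2 was the lowest of its group, within the control range. The rise of 1.09 ± 0.21 was a fold of 2.13, with a 95% interval of 1.55 to 2.91 (limma adjusted p = 0.0005, exact permutation p = 0.0159). It passed with quantile normalization (0.85) and with centring (0.66).

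Pde4d 1368750_a_at had log2 signals of 2.15, 2.39, 3.14 and 2.21 in Met-fed hearts, 3.70, 3.82, 3.85 and 3.31 in L-NAME hearts, and 3.03, 2.43, 2.66, 3.25 and 2.20 in control hearts. L-NAME hearts again lay above all others, with a log2 change of 0.96 ± 0.33 (limma adjusted p = 0.0254), a call lost with quantile normalization (0.47) and centring (0.53). Pde4d 1392968_at did not pass, at 0.14 ± 0.18, and ranged between 8.02 and 8.73 in L-NAME hearts, 8.22 and 8.61 in Met-fed hearts and 7.80 and 8.59 in control hearts. The Met-fed changes of the 3 Pde4d probe sets lay between -0.24 and 0.33.

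**Figure D2:**
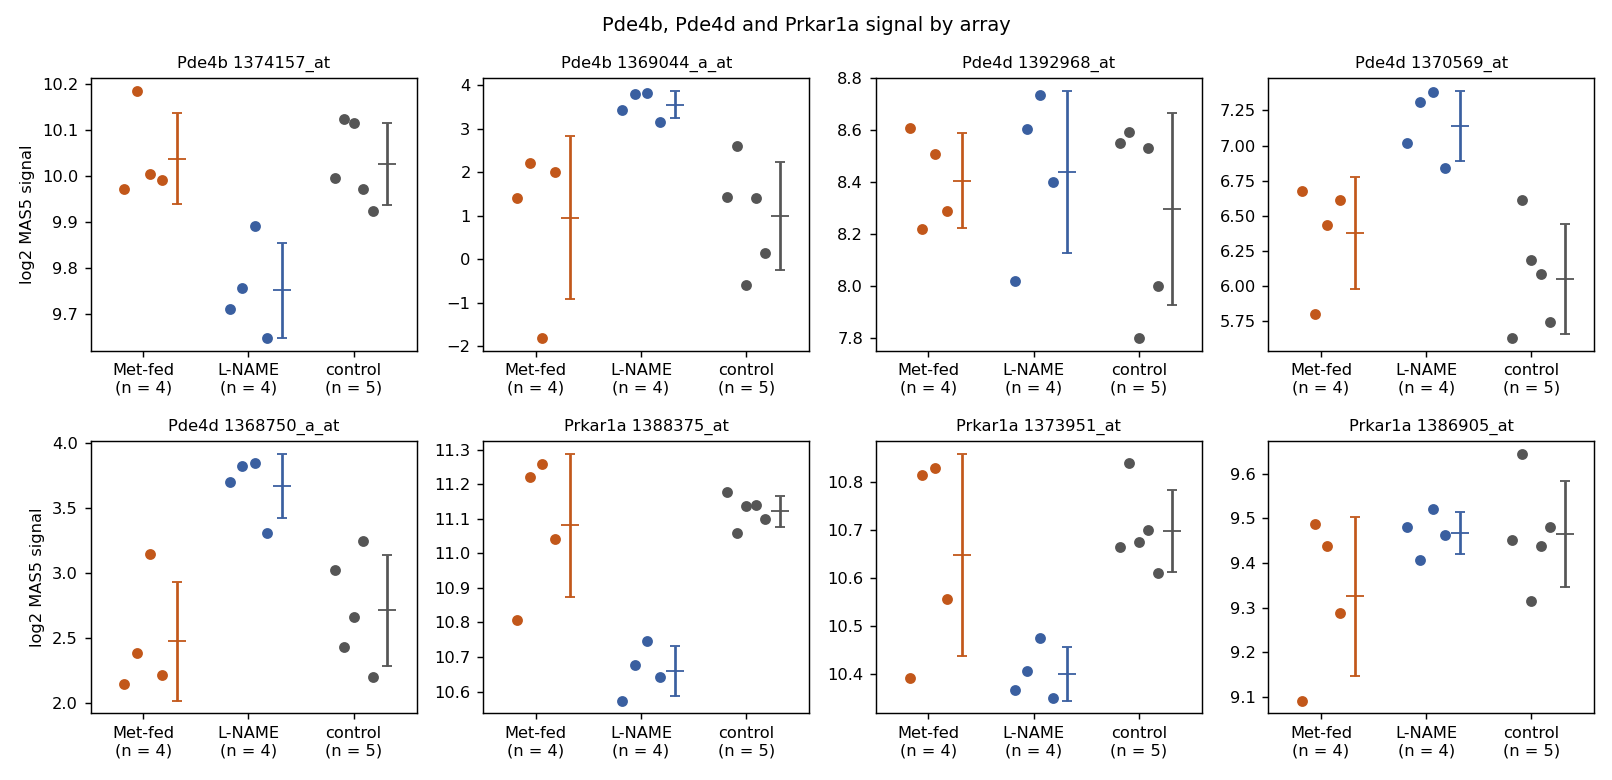
Log2 MAS5 signal of each array for the probe sets of Pde4b, Pde4d and Prkar1a, with mean and SD beside the points and a separate vertical scale in each panel. L-NAME hearts sit below control for Pde4b 1374157_at and for Prkar1a 1388375_at and 1373951_at, and above control for Pde4b 1369044_a_at and Pde4d 1370569_at and 1368750_a_at.

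Of the PKA subunits, the regulatory subunit Prkar1a was lower in L-NAME hearts on 2 of its 3 probe sets. Prkar1a 1388375_at had log2 signals of 10.81, 11.22, 11.26 and 11.04 in Met-fed hearts, 10.57, 10.68, 10.75 and 10.64 in L-NAME hearts, and 11.18, 11.06, 11.14, 11.14 and 11.10 in control hearts. Every L-NAME heart was below every other heart, and Met-fed heart 1 was the lowest of the Met-fed hearts. The log2 change was -0.46 ± 0.082, a fold of 0.726 with a 95% interval of 0.644 to 0.818 and limma adjusted p = 0.000198. Prkar1a 1373951_at changed by -0.30 ± 0.086 (adjusted p = 0.00928), again with no overlap between L-NAME and control hearts. Both lay in the brightest signal class, and with quantile normalization their changes were -0.088 and 0.000427 and neither passed. With centring both passed, at -0.89 and -0.72.

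Prkar1a 1386905_at was at 9.41 to 9.52 in L-NAME hearts, 9.09 to 9.49 in Met-fed hearts and 9.31 to 9.65 in control hearts. Its L-NAME change of 0.00223 ± 0.088 had a 95% interval of the fold of 0.88 to 1.14 and did not pass as deposited, nor with quantile normalization (0.092). With centring it passed as lower (-0.42, limma adjusted p = 0.00433), so all 3 probe sets of the gene were lower under that scaling. In Met-fed hearts the 3 probe sets differed from control by -0.041 ± 0.082, -0.050 ± 0.086 and -0.14 ± 0.088.

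The catalytic subunit Prkaca was read by 1 probe set, 1371578_at, with log2 signals of 10.52, 10.82, 10.74 and 10.51 in Met-fed hearts, 10.49, 10.63, 10.75 and 10.64 in L-NAME hearts, and 10.46, 10.57, 10.58, 10.65 and 10.70 in control hearts. The 3 groups overlapped throughout. The change was 0.035 ± 0.081 in L-NAME hearts (95% interval of the fold 0.91 to 1.15) and 0.058 ± 0.081 in Met-fed hearts (interval 0.925 to 1.17). The direction in L-NAME hearts depended on the scaling, since the probe set passed as higher with quantile normalization (0.38, adjusted p = 5.36e-05) and as lower with centring (-0.39, adjusted p = 0.00689).

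Creb1 encodes the CRE-binding activator CREB, and its 4 probe sets all had a positive change in L-NAME hearts, of which 2 passed. Creb1 1375655_at had log2 signals of 6.72, 6.54, 6.21 and 6.47 in Met-fed hearts, 7.71, 7.09, 6.93 and 7.08 in L-NAME hearts, and 6.18, 6.16, 6.19, 6.78 and 6.14 in control hearts. The L-NAME hearts were above all others, and control 4 stood above the other controls. The rise was 0.91 ± 0.18, a fold of 1.88 with a 95% interval of 1.45 to 2.44 (limma adjusted p = 0.000478, exact permutation p = 0.0159). It passed with quantile normalization (0.68) and with centring (0.49).

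Creb1 1369708_a_at had log2 signals of 3.15, 3.67, 2.72 and 2.36 in Met-fed hearts, 3.98, 3.97, 3.96 and 4.62 in L-NAME hearts, and 0.93, 2.22, 2.42, 2.51 and 2.87 in control hearts. L-NAME hearts did not overlap with the others, and 4 of 5 control hearts exceeded their bacterial controls. The rise was 1.94 ± 0.40 (limma adjusted p = 0.000773) and passed under all 3 scalings, at 1.48 with quantile normalization and 1.52 with centring. Creb1 1371291_at exceeded the bacterial controls on 3 of 4 L-NAME arrays and on 0 of 4 Met-fed and 0 of 5 control arrays. Set against the bacterial controls in place of the dim values, its signal was at least 1.19-fold higher in L-NAME than in control hearts, with a fitted adjusted p of 0.0762 that did not pass. Creb1 1377913_at changed by 0.21 ± 0.21 and did not pass. In Met-fed hearts the Creb1 changes lay between -0.65 and 0.79, with 3 of 4 positive.

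Crem encodes activators and repressors that bind the same element, and it had 6 probe sets. Their Met-fed changes were positive on 5 of 6 and none passed. Crem 1378925_at had log2 signals of 8.83, 7.87, 7.64 and 8.15 in Met-fed hearts, 8.10, 8.29, 8.28 and 8.12 in L-NAME hearts, and 8.32, 8.04, 8.02, 7.71 and 7.90 in control hearts. Crem 1369737_at had log2 signals of 9.08, 7.30, 7.56 and 8.30 in Met-fed hearts, 7.86, 8.19, 8.13 and 7.80 in L-NAME hearts, and 8.36, 8.20, 7.68, 6.97 and 7.35 in control hearts. Crem 1369738_s_at had log2 signals of 8.34, 6.45, 6.79 and 7.26 in Met-fed hearts, 7.33, 7.70, 7.65 and 7.33 in L-NAME hearts, and 7.51, 7.69, 6.45, 6.13 and 6.50 in control hearts. On all 3 of these probe sets Met-fed heart 1 was the highest of the 13 hearts, and Met-fed hearts 2 and 3 lay within or below the control range. Controls 1 and 2 were the highest controls on each of the 3. The Met-fed spread was wide, with an SD of 0.52, 0.80 and 0.82, against 0.22, 0.58 and 0.70 in control hearts.

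Methionine feeding changed these 3 probe sets by 0.12 ± 0.18, 0.35 ± 0.32 and 0.36 ± 0.35 on the log2 scale, with limma adjusted p of 0.85, 0.735 and 0.759. The 95% intervals of the fold were 0.83 to 1.43, 0.798 to 2.03 and 0.765 to 2.14. Without Met-fed heart 1, the changes of 1378925_at and 1369738_s_at turned to -0.11 and -0.022. The other Crem probe sets, 1393550_at, 1387714_at and 1396545_at, changed by 0.35 ± 0.19, 0.23 ± 0.24 and -0.25 ± 0.34 in Met-fed hearts, with fold intervals of 0.965 to 1.69, 0.82 to 1.67 and 0.513 to 1.38.

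In L-NAME hearts all 6 Crem probe sets had a positive change and 2 passed. Crem 1393550_at had log2 signals of 5.46, 4.94, 5.36 and 5.001 in Met-fed hearts, 6.60, 6.22, 6.13 and 6.59 in L-NAME hearts, and 5.30, 4.84, 4.80, 4.52 and 4.72 in control hearts. The lowest L-NAME heart was above the highest heart of either other group. The rise of 1.55 ± 0.19 was a fold of 2.92, with a 95% interval of 2.21 to 3.87, a limma adjusted p of 6.04e-06 and an exact permutation p of 0.00794, the smallest possible. It passed with quantile normalization (1.23, adjusted p = 5.34e-05) and with centring (1.12, adjusted p = 0.000102), and its change exceeded the median of its signal class by 1.27.

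Crem 1387714_at had log2 signals of 4.90, 4.32, 4.56 and 4.61 in Met-fed hearts, 5.22, 5.43, 5.40 and 5.42 in L-NAME hearts, and 4.88, 4.97, 4.03, 4.04 and 3.96 in control hearts. L-NAME hearts lay above all others, and controls 1 and 2 again stood above controls 3 to 5. The rise was 0.99 ± 0.24 (fold 1.99, limma adjusted p = 0.00289), and it narrowly missed the threshold with quantile normalization (0.58, adjusted p = 0.0521) and centring (0.57, adjusted p = 0.0563). The remaining probe sets changed by 0.20 ± 0.18 (1378925_at), 0.28 ± 0.32 (1369737_at), 0.65 ± 0.35 (1369738_s_at) and 0.24 ± 0.34 (1396545_at), and none passed. With centring the changes of 1378925_at, 1369737_at and 1396545_at were negative, as was that of 1396545_at with quantile normalization. L-NAME hearts differed little among themselves on 1378925_at, with an SD of 0.099.

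The Crem probe sets differed in how alike they were over the 13 hearts. As a measure of likeness, the root mean square difference of the centred log2 signals over the 15 pairs was lowest between 1369737_at and 1369738_s_at, at 0.23, and highest between 1369737_at and 1393550_at, at 0.73. Crem 1378925_at, 1369737_at and 1369738_s_at lay 0.23 to 0.40 from each other and 0.64 to 0.73 from 1393550_at. Crem 1387714_at lay about as close to 1393550_at (0.36) as to 1369738_s_at (0.38). The measure takes in differences between groups as well as between hearts, and whether the probe sets form groups was not tested. The files do not give the position of these probes in the gene, so no probe set was assigned to an isoform or to a start window. By the same measure, the genes most like Crem 1378925_at among 9392 candidates were Prepl (0.13), Ncald (0.15), Nabp1 (0.16), Plpp1 (0.16) and Acsl4 (0.17), where the median candidate was at 0.43.

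**Figure D3:**
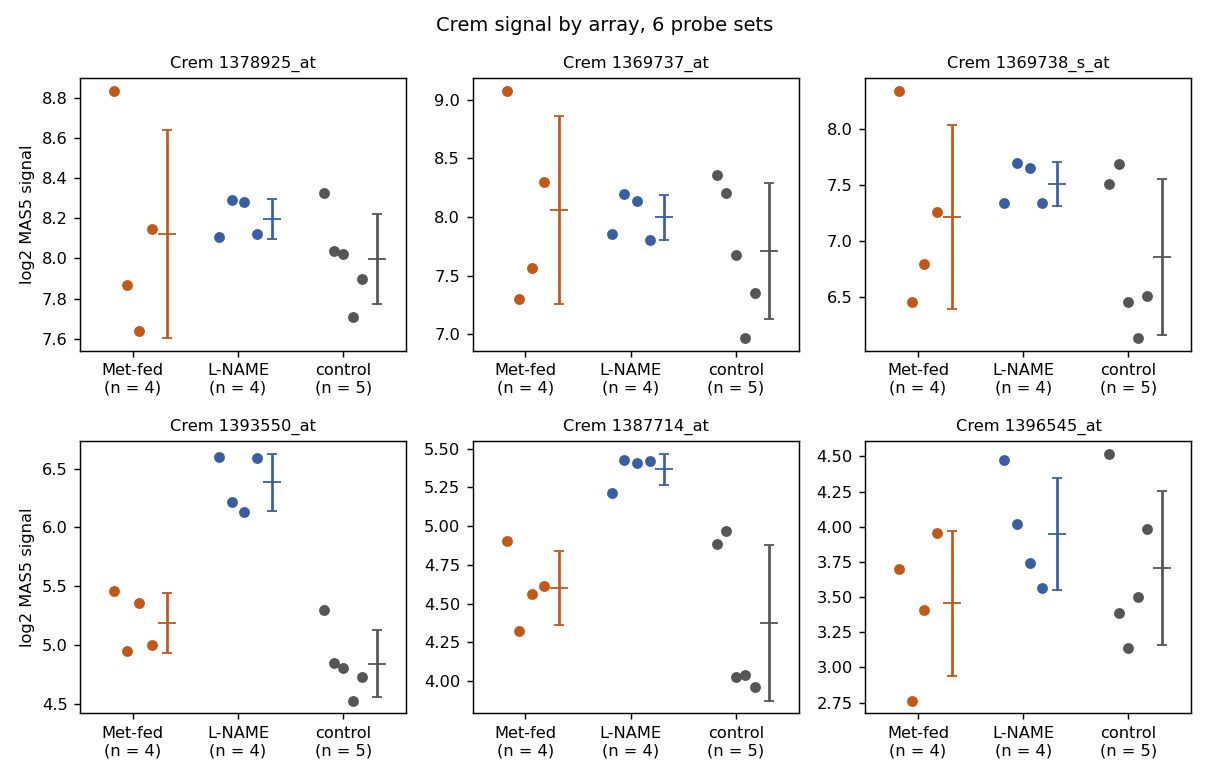
Log2 MAS5 signal of each array for the 6 Crem probe sets, with mean and SD beside the points and a separate vertical scale in each panel. L-NAME hearts lie above all others on 1393550_at (6.13 to 6.60) and 1387714_at, and Met-fed heart 1 is the highest point on 1378925_at, 1369737_at and 1369738_s_at.

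Across the 24 probe sets, the L-NAME changes differed by signal. In the brightest signal class 0 of 9 were called higher and 3 lower, where 28.6% and 38.8% of all probe sets in that class were. In the next class down 5 of 7 were called higher and 0 lower, where 42% and 19.9% of all were. In the second class from the bottom 3 of 5 were called higher and 0 lower, where 34.9% and 6.88% of all were. In the dimmest class 1 of 3 was called higher and 0 lower, where 9.28% and 2.41% of all were.

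**Figure D4:**
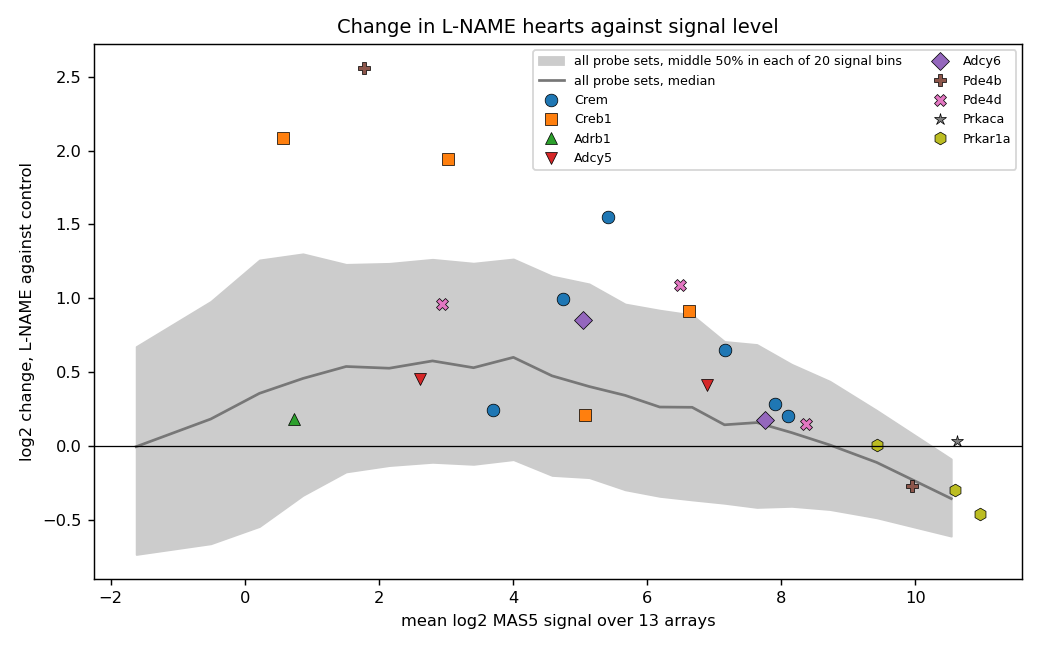
Log2 change in L-NAME against control hearts (vertical) against mean log2 signal over 13 arrays (horizontal) for the 24 probe sets, over the median (line) and the middle 50% (grey band) of all probe sets in 20 bins of signal. Among the probe sets above the band are Crem 1393550_at (1.55), Creb1 1369708_a_at (1.94) and 1371291_at (2.09), Pde4b 1369044_a_at (2.56) and Pde4d 1370569_at (1.09). Prkar1a 1373951_at (-0.30) lies close to the line.

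L-NAME hearts were also set against Met-fed hearts, which asked how the models differed. Of the 24 probe sets 11 passed, 8 higher and 3 lower, in 5 genes, against 40.3% of all probe sets, 25.4% higher and 14.9% lower. Groups did not overlap for 11 probe sets, and for 39.6% of all. With quantile normalization 4 of the 24 passed, against 36.7% of all, and with centring 6 passed, against 39.2%. With a filter at the median signal 6 of the 16 left passed, against 60.1% of all that were left. Crem 1393550_at was again higher in L-NAME hearts, by 1.20 ± 0.20 (fold 2.29, limma adjusted p = 0.000182), and was the only one of the 24 to pass in the same direction under all 3 scalings, which held for 25.6% of all probe sets. Crem 1387714_at was higher by 0.77 ± 0.25, Creb1 1375655_at by 0.72 ± 0.19 and Creb1 1369708_a_at by 1.16 ± 0.42. Creb1 1371291_at was at least 1.59-fold higher, Pde4b 1369044_a_at was higher by 2.61 ± 0.81, Pde4d 1370569_at by 0.76 ± 0.22 and Pde4d 1368750_a_at by 1.20 ± 0.35. Lower probe sets were Pde4b 1374157_at (-0.29 ± 0.079), Prkar1a 1388375_at (-0.42 ± 0.086) and Prkar1a 1373951_at (-0.25 ± 0.091). The L-NAME arrays are the same in both L-NAME comparisons, so these values are not a second, independent result.

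The wider pathway was read through 131 listed genes, of which 124 were measured, each by its brightest probe set with a single symbol. Against control, 0 of 124 passed in Met-fed hearts. The genes of smallest p in the 10 lists were Vipr2, Adrbk1, Adcy9, Pde1c, Prkar2a, Akap8, Popdc3, Ep300, Rrad and Sik1, with limma adjusted p between 0.13 and 0.765. In L-NAME hearts 66 passed, 35 higher and 31 lower, which is 53.2%, against 24.2% higher and 25.2% lower among all 14217 genes. Their median log2 change was 0.15, and that of all genes 0.00987. With quantile normalization the split was 26 higher and 30 lower, where 20.1% of all genes were higher and 30% lower. With centring it was 14 higher and 50 lower, where 11.1% and 42.1% of all genes were. Against Met-fed hearts, 57 of 124 passed in L-NAME hearts, 30 higher and 27 lower, where 21.5% of all genes were higher and 22.5% lower. The counts by list below are for L-NAME against control. Their share passing ran from 28.6% (receptors) to 78.6% (PKA substrates and phosphatases), where 49.4% of all genes passed. Most PKA substrates and phosphatases lay in the brightest signal class, where 67.4% of all probe sets passed.

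Among receptors, 4 of 14 measured genes rose in L-NAME hearts against control and 0 fell. They included Calcrl, the calcitonin receptor-like receptor, at 1.36 ± 0.18 (SE), and the adenosine receptor Adora2a at 1.37 ± 0.20. Adra1a, an α1-adrenergic receptor coupled to another G protein than that of the cyclases, exceeded the bacterial controls on 3 of 4 L-NAME and 0 of 5 control arrays and was at least 1.33-fold higher (limma adjusted p = 0.0041). Of 17 G proteins, receptor kinases and arrestins, 7 rose and 3 fell, among them Gng2, a G protein γ subunit, at 1.24 ± 0.20, Gnai1, an inhibitory G protein subunit, at 1.72 ± 0.40, and the receptor kinase Grk6 at -0.72 ± 0.098. These 6 genes passed in the same direction under quantile normalization and under centring, but the list counts changed. Receptors were 3 higher and 3 lower under each of those scalings. The G protein list was 4 higher and 2 lower with quantile normalization, and 2 higher and 7 lower with centring.

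Of 8 adenylyl cyclases 2 rose and 1 fell. Adcy9 rose by 1.38 ± 0.22 and Adcy2 fell, with a change of -0.68 ± 0.24. With quantile normalization, and likewise with centring, 1 cyclase was higher and 3 were lower. Of 15 phosphodiesterases 5 rose and 2 fell, with rises in Pde10a (1.70 ± 0.27), Pde8a (0.69 ± 0.14) and Pde3a, whose enzyme degrades cAMP in cardiac muscle. Pde3a exceeded the bacterial controls on 4 of 4 L-NAME and 0 of 5 control arrays and was at least 2.8-fold higher (limma adjusted p = 0.000534). The phosphodiesterase list was 5 higher and 3 lower with quantile normalization and 3 higher and 3 lower with centring, where Pde8a no longer passed (0.27). Pde1c was the phosphodiesterase with the smallest p in Met-fed hearts, at a log2 signal of -2.14 ± 0.57 (SD, n = 4) against 1.64 ± 0.37 (SD, n = 5) in control hearts, but it exceeded the bacterial controls on 0 of 4 Met-fed and 1 of 5 control arrays and its adjusted p of 0.13 in limma did not pass.

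Of 9 PKA subunits and inhibitors 0 rose and 4 fell, which is 44.4% called, against 49.4% of all genes. All but Prkar1b and Pkib lay in the brightest signal class, where 38.8% of all probe sets were called lower. Pkig and Pkia, which encode protein inhibitors of the catalytic subunit, fell with changes of -0.72 ± 0.078 and -0.53 ± 0.080, and both passed under all 3 scalings, beside the Prkar1a result above. This list was 1 higher and 3 lower with quantile normalization and 0 higher and 7 lower with centring. Of 12 A-kinase anchoring proteins, which hold PKA at its sites of action, 3 rose and 4 fell, with Akap8 at 0.73 ± 0.070, Akap9 at -0.77 ± 0.13 and Akap7 at -0.57 ± 0.10. The anchoring proteins were 2 higher and 3 lower with quantile normalization and 1 higher and 6 lower with centring. Of 7 other cAMP effectors 1 rose, the exchange factor Rapgef3 (0.59 ± 0.22), and 2 fell, the Popeye domain proteins Popdc2 (-0.47 ± 0.11) and Bves (-0.31 ± 0.12). Rapgef3 lost its call with quantile normalization (0.17) and with centring (0.16), and Popdc2 lost its call with quantile normalization (-0.18). Bves passed as lower under all 3 scalings.

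Of 9 CREB family factors and coactivators 2 rose and 5 fell. Crtc3, a CREB coactivator, had mean log2 signals of 4.42 ± 0.19 (SD, n = 4) in L-NAME hearts, 6.08 ± 0.22 (SD, n = 4) in Met-fed hearts and 6.09 ± 0.28 (SD, n = 5) in control hearts, a change of -1.67 ± 0.18 (SE) against control with limma adjusted p = 1.31e-06. Atf1, a close relative of CREB, changed by -0.39 ± 0.057 and Ep300, a histone acetyltransferase that CREB recruits, by -0.49 ± 0.076. All 5 that fell passed as lower under all 3 scalings, and 1 of the 2 that rose passed as higher. Of all probe sets 15.6% passed as higher and 15.4% as lower under all 3. Centring lowers every L-NAME change against control by the same amount, which favours falls, so falls and rises cannot be compared for robustness in this way. Crem counts as not passing in these lists because its brightest probe set, 1378925_at, did not.

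Of 14 cardiac PKA substrates and phosphatases 2 rose and 9 fell, which gave a median of -0.44. All but Ppp1r1a lay in the brightest signal class, where 28.6% of all probe sets were called higher and 38.8% lower. The part of signal level in these falls was not tested. Fxyd1 (phospholemman), the PKA-regulated partner of the sodium pump, changed by -0.82 ± 0.079, the calcium pump inhibitor phospholamban (Pln) by -0.63 ± 0.070 and myosin-binding protein C (Mybpc3) by -0.71 ± 0.087. With quantile normalization 3 rose and 5 fell, and the changes of Pln and Mybpc3 were -0.11 and -0.23. With centring 0 rose and 11 fell. Under all 3 scalings 5 of the 14 genes passed as lower and 0 as higher, but centring lowers every L-NAME change against control by the same amount, which favours falls. The summed cardiac muscle marker signal given above was lower in L-NAME hearts as well, but Pln and Tnni3 are in both lists. Its part in these falls was not tested.

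Of 23 CREB target genes 10 rose and 2 fell in L-NAME hearts, with a median of 0.60. The share that passed in either direction was 52.2%, close to the 49.4% of all genes, of which 24.2% rose and 25.2% fell. The insulin receptor substrate Irs2 rose by 0.77 ± 0.14 and the nuclear receptor Nr4a3 by 1.76 ± 0.38, while the transcription factor Cebpb changed by -1.34 ± 0.24. With quantile normalization 6 rose and 1 fell, and with centring 3 rose and 3 fell. In Met-fed hearts the target with the smallest p was the salt-inducible kinase Sik1, at a log2 signal of 8.50 ± 0.18 (SD, n = 4) against 9.13 ± 0.30 (SD, n = 5) in control hearts, and its adjusted p of 0.221 in limma did not pass. RefSeq windows were held for 18 of the 23 target genes. In at least 1 of their windows, 4 of these genes, Areg, Crem, Dusp1 and Ppargc1a, had a full CRE and 15 had a half-site. The shares of all windows given above are per window, and a gene can have several. They are therefore no background for these counts per gene, and whether the counts are high was not tested.

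**Figure D5:**
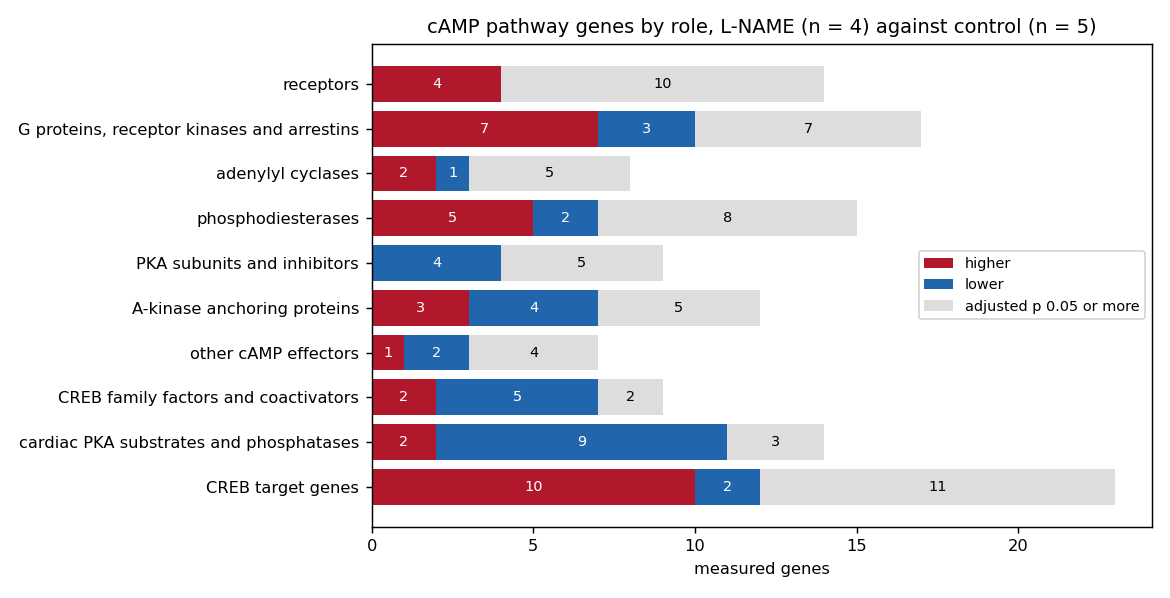
Number of measured genes (horizontal) in each list of cAMP pathway genes (vertical) called higher, lower or neither in L-NAME against control hearts at an adjusted p under 0.05 in limma, as deposited. CREB targets were called mostly higher (10 against 2) and PKA substrates and phosphatases mostly lower (2 against 9). All of the latter but Ppp1r1a lay in the brightest signal class, where 28.6% of all probe sets were called higher and 38.8% lower. Of all genes 24.2% were called higher and 25.2% lower. The counts changed with the scaling. CREB targets were 6 against 1 with quantile normalization and 3 against 3 with centring. PKA substrates and phosphatases were 3 against 5 and 0 against 11.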

How the data were processed

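Left ventricle RNA of pregnant rats was hybridized to 13 Affymetrix arrays, 1 sample per array. The deposited values are linear signal intensity values per probe set, computed by the authors with MAS5 (version not given in the sources used here). The mean without the top and bottom 2% of values was 150 on each array. No further normalization, offset or filter was applied. Of 31099 probe sets, 57 manufacturer's controls were dropped, and the log2 values of the other 31042 were fitted with limma 3.58.1 in R 4.3.3, with 1 coefficient per group over all 13 arrays, a variance that follows the signal and no covariate. Benjamini-Hochberg adjustment ran over all 31042 with a threshold of 0.05. Exact permutation tests were 2-sided, on the difference of means. Intervals are 95% and errors of changes are SE. The number of arrays limits the precision.

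Genes came from the platform annotation, in which 20826 probe sets had 1 symbol, 436 several and 9780 none. The fit was tested on simulated data of this design. The genes and the pathway and marker lists were chosen with earlier results of these data known, so their counts are a description. All probe sets of the 9 genes were named. Of each pathway list, up to 3 genes of smallest p among those passing were named, or the 1 of smallest p where none passed. Genes so named for L-NAME against Met-fed hearts were left out, and only their counts are given. Of genes at or above the median signal, each read by its brightest probe set with a single symbol, the 5 closest to the brightest Crem probe set were named, by the root mean square difference of centred log2 signal over the 13 arrays. Pathway genes described with a scaling, and the CRE windows, were chosen after values were seen. The alternatives were a replicate block, quantile normalization, the compared groups alone, array median centring, a filter at the median signal, the methods' t-test, offsets of 16 and 50, an untrended variance, the per-gene mean of all probe sets, and each array left out in turn. The variance stabilization named by the study was not applied because no settings are stated in the sources used here. Motifs were searched on both strands of RefSeq windows (GRCr8). Figures were drawn with matplotlib 3.10.9.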

Additional observations from a re-analysis of the deposited data

Results flagged for a closer look

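Within groups of 4 or 5 hearts, 1 heart stood apart from the rest of its group for 6 of the 72 combinations of probe set and group, by a test of the gap to the nearest heart that chance passes in about 1 in 20 groups. Of these, 3 were high and 3 were low. Control heart 4 was high for Creb1 1375655_at, at a log2 signal of 6.78, against 6.14 to 6.19 in the other controls. L-NAME heart 4 was high for Creb1 1369708_a_at, at 4.62, against 3.96 to 3.98. Met-fed heart 2 was high for Pde4b 1374157_at, at 10.19, against 9.97 to 10.004. L-NAME heart 1 was low for Crem 1387714_at, at 5.22, against 5.40 to 5.43 in the other L-NAME hearts. Control heart 5 was low for Creb1 1371291_at, at -3.41, against 0.50 to 1.26, where all control values were under the bacterial controls. Control heart 3 was low for Adcy6 1367644_at, at 7.38, against 7.75 to 7.86.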

How the results depend on the processing

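In L-NAME against control hearts, 12 of the 24 probe sets passed as deposited, 6 with quantile normalization and 10 with array median centring. Of all probe sets, 45.7%, 43.9% and 45.7% passed under these scalings. Against Met-fed hearts, 11 passed as deposited, 4 with quantile normalization, 6 with centring and 6 with a filter at the median signal, where 16 of the 24 were tested. The shares of all probe sets tested were 40.3%, 36.7%, 39.2% and 60.1%. With 1 array left out at a time, 7 to 12 passed against Met-fed hearts, with 7 without Met-fed heart 3, L-NAME heart 2 or L-NAME heart 4, and 9 to 12 against control. None of the 24 probe sets passed in Met-fed against control hearts under any of these settings. Of the calls over all probe sets in L-NAME against control hearts, 62.8% were higher as deposited, 50.1% with quantile normalization and 34.9% with centring. Against Met-fed hearts the shares were 63.1%, 49.5% and 34.4%. The median change of all probe sets against control was 0.22, -0.014 and -0.21 under these scalings, and against Met-fed hearts 0.25, 0.000452 and -0.11. Which scaling is the right one for these arrays was not tested.

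Same-numbered arrays of different groups deviated from their group means with correlations of -0.030 to 0.044, so the replicate numbers were not treated as pairs. With the replicate block, 10 of the 24 passed in L-NAME against control hearts, 11 in L-NAME against Met-fed hearts and 0 in Met-fed against control hearts.

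With array median centring, the change of L-NAME hearts against control turned to -0.23 for Crem 1378925_at, -0.14 for Crem 1369737_at, -0.18 for Crem 1396545_at, -0.22 for Creb1 1377913_at, -0.24 for Adrb1 1369806_at, -0.012 for Adcy5 1368298_at, -0.25 for Adcy6 1367644_at, -0.28 for Pde4d 1392968_at, -0.39 for Prkaca 1371578_at and -0.42 for Prkar1a 1386905_at. With array median centring, the change of Met-fed hearts against control turned to -0.046 for Pde4b 1374157_at. With an offset of 16, the change of Met-fed hearts against control turned to 0.021 for Pde4b 1369044_a_at. With an offset of 50, the change of Met-fed hearts against control turned to 0.00713 for Pde4b 1369044_a_at. With quantile normalization, the change of L-NAME hearts against Met-fed turned to 0.014 for Prkar1a 1373951_at. With quantile normalization, the change of L-NAME hearts against control turned to -0.26 for Crem 1396545_at, -0.21 for Creb1 1377913_at, -0.21 for Adrb1 1369806_at, -0.00606 for Adcy5 1390038_at and 0.000427 for Prkar1a 1373951_at. With quantile normalization, the change of Met-fed hearts against control turned to 0.087 for Pde4b 1369044_a_at and 0.00276 for Prkar1a 1388375_at. With the replicate block, the change of L-NAME hearts against control turned to -0.36 for Adrb1 1369806_at. With the replicate block, the change of Met-fed hearts against control turned to -0.019 for Creb1 1377913_at, 0.00585 for Adcy6 1367644_at and -0.013 for Pde4b 1374157_at. With 1 array left out at a time, the change of Met-fed hearts against control crossed 0 for 10 probe sets, with ranges of -0.11 to 0.28 (Crem 1378925_at), -0.022 to 0.61 (Crem 1369738_s_at), -0.056 to 0.20 (Creb1 1377913_at), -1.53 to 0.088 (Creb1 1371291_at), -0.087 to 0.049 (Adcy6 1367644_at), -0.037 to 0.036 (Pde4b 1374157_at), -0.47 to 0.88 (Pde4b 1369044_a_at), -0.014 to 0.19 (Pde4d 1392968_at), -0.10 to 0.051 (Prkar1a 1388375_at) and -0.11 to 0.035 (Prkar1a 1373951_at). With 1 array left out at a time, the change of L-NAME hearts against control crossed 0 for 3 probe sets, with ranges of -0.36 to 1.11 (Adrb1 1369806_at), -0.00681 to 0.082 (Prkaca 1371578_at) and -0.036 to 0.047 (Prkar1a 1386905_at). The causes were not tested. Probe sets at the level of the bacterial controls limit what can be said of Adrb1, Creb1 1371291_at and Pde4b 1369044_a_at.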
